A study of Homo sapiens with 6 samples.

Results

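The genes of Toll-like receptor 2 (TLR2) and of NF-kappaB signalling were followed in HK-2 cells, an immortalised line of human proximal tubule epithelium. The set has 10 genes, picked by name for their place in the pathway: the receptors TLR2 and TLR4, the adaptor MYD88, the kinase IRAK1, the transcription factor subunits NFKB1, NFKB2 and RELB, and the inhibitors and target genes NFKBIA, TNFAIP3 and BIRC3. The choice was made with earlier results of these data known. All 10 were found by gene name among the 62754 genes of the count table, and each reached 10 counts in at least 3 libraries, so none was set aside as low.

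The study silenced NAT10, an acetyltransferase of RNA and protein, to look for genes through which it acts on injured tubular cells. HK-2 cells had received Cisplatin, a platinum drug that damages DNA and harms the proximal tubule, together with a negative control siRNA (siNC, 3 libraries) or an siRNA against NAT10 (siNAT10, 3 libraries). Cisplatin was common to both groups and no group without it was sequenced, so every difference is between siRNAs within Cisplatin-treated cells. The labels give neither the dose nor the time of Cisplatin. They number the libraries cell1 to cell3 in each group, and nothing says that these were separate cultures, so p-values measure the spread between these libraries, which may be technical. The siNC libraries held 19321665, 21602988 and 19464027 counts and the siNAT10 libraries 20793709, 21531774 and 25192736.

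Toll-like receptors sense microbial lipids and molecules released by damaged cells, and pass the signal through MYD88 and the IRAK kinases to the IKK complex, which marks the inhibitor IkappaB-alpha for degradation and so frees NF-kappaB dimers to enter the nucleus. A slower branch, driven by receptors such as CD40, turns the NFKB2 product into a partner for RELB. Many proteins of the pathway are themselves made from NF-kappaB target genes, among them its own brakes, and tubular epithelium is known to use the pathway to make cytokines after injury.

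NAT10, the gene targeted by the siRNA, was measured at 75.8, 71.4 and 73.2 CPM (counts per 1000000 of the TMM-scaled library) in the siNC libraries and at 41.3, 40.5 and 42.4 CPM in the siNAT10 libraries. The groups did not overlap, and siNAT10 held 56.4% of the siNC level. The log2 fold change of siNAT10 against siNC was -0.82 (SE 0.0426, edgeR adjusted p = 2.79e-15).

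The cell type was checked by marker genes. Of 18 markers of kidney epithelium and proximal tubule, 11 had enough counts to be tested, and the keratin gene KRT8 gave 68.3% of their summed level. This sum was 2159, 2184 and 2123 CPM in siNC and 2095, 2085 and 2114 CPM in siNAT10. With TMM scaling it was thus lower in every siNAT10 library. The TMM factors were 0.976 to 0.993 in siNC and 1.008 to 1.017 in siNAT10, so a gap this small depends on the scaling. KRT18 fell from 346 to 269 CPM (log2 fold change -0.36), while KRT8 was not called (-0.0046). Of the tested markers 4 were called higher and 3 lower, while 9 of the 18 had a mean under 1 CPM, among them the endocytic receptors LRP2 and CUBN and the transporters SLC34A1 and SLC22A8, and SLC22A6 was at 0 in every library. Of 14 immune cell markers, 12 had a mean under 1 CPM, and CD68, which is also a lysosomal protein of other cells, gave 98.0% of their sum. That sum was 213, 202 and 219.8 CPM in siNC and 291, 270.0 and 272 CPM in siNAT10, so it was higher in every siNAT10 library. Only 3 of the 14 could be tested, and the called ones were CD68 (log2 fold change 0.40) and the leukocyte gene PTPRC. The mean of PTPRC was 0.418 ± 0.0521 CPM in siNC and 0.824 ± 0.446 CPM in siNAT10 (SD, n = 3 per group; edgeR adjusted p = 0.0411). Its counts were only 8, 10 and 7 in siNC and 10, 29 and 17 in siNAT10, where replicate 2 raised the mean. PTPRC was not followed under the alternatives. For 7 fibroblast markers the sum lay between 21.9 and 30.2 CPM, with COL1A1 the most abundant and the only one called (log2 fold change 0.38, edgeR adjusted p = 0.000622), and for 5 endothelial markers it was at most 0.514 CPM, with PECAM1 the most abundant. The part of any of these in the results was not tested, and in such bulk samples fewer cells of a type and less RNA per cell cannot be told apart.

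Of the 10 members, 6 were lower in siNAT10 at an adjusted p under 0.05 (called lower) and 0 were higher. Over all 19874 tested genes, 44.1% were called, 22.3% lower and 21.8% higher. No test compared the members with the other genes. The members were chosen with earlier results of these data known. Neither these shares nor the medians below can therefore show that the set differs from other genes. The called genes were TLR2, NFKB2, RELB, NFKBIA, TNFAIP3 and BIRC3. RELB and BIRC3 also passed a log2 fold change of -1, as did 1.38% of the tested genes. The median log2 fold change was -0.61 over the members and 0.0070 over all tested genes. NFKB1, not called here, was called higher when libraries were scaled by size alone (log2 fold change 0.16, adjusted p = 0.0179), without siNAT10 replicate 1 (0.15, adjusted p = 0.0235) and with the replicate number as a block (0.12, adjusted p = 0.0499). Over the 12 alternatives that test against no change its adjusted p ran from 0.0179 to 0.290.

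**Figure D1:**
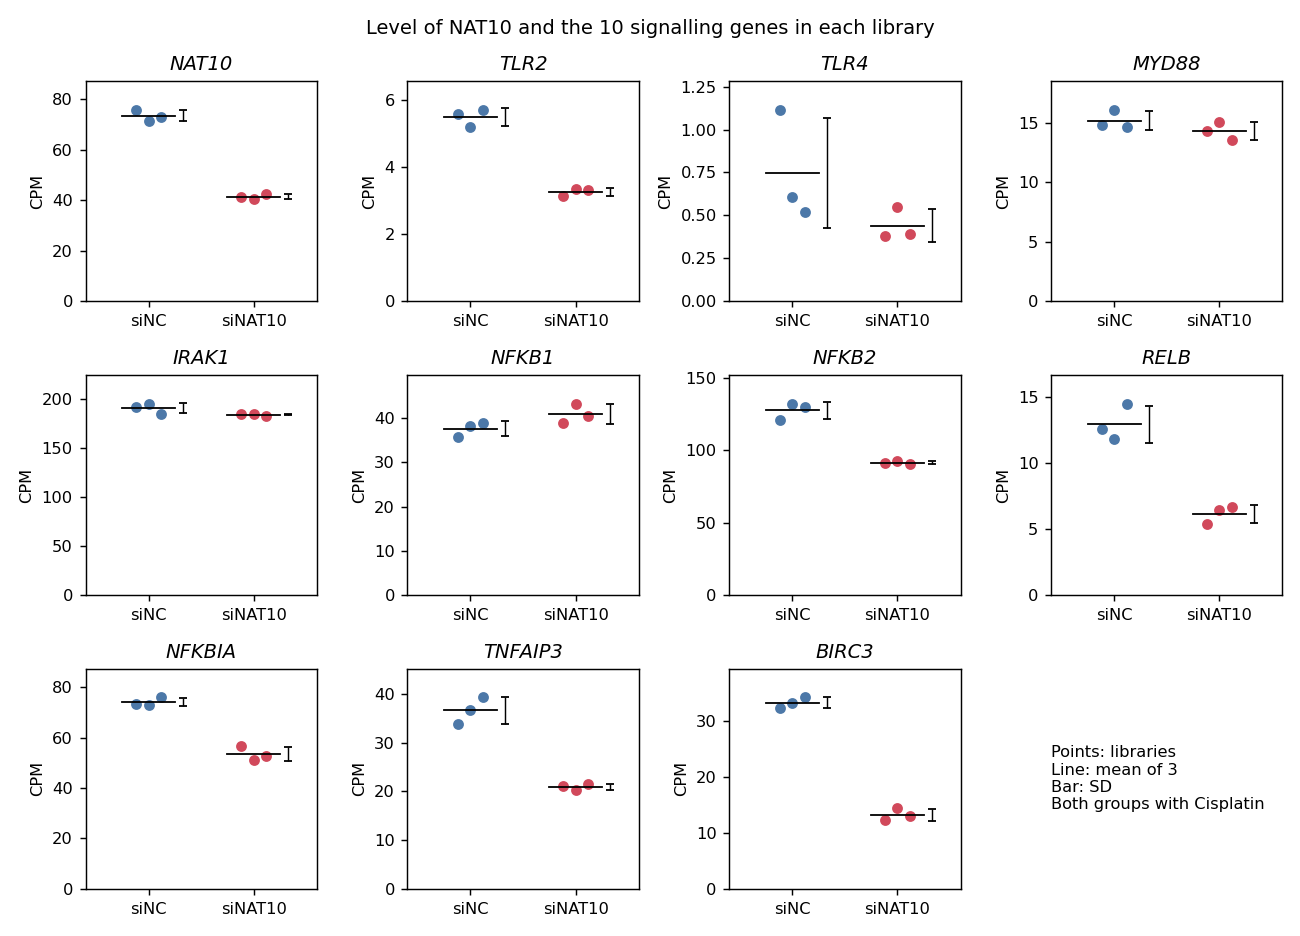
Level of NAT10 and the 10 members in each library, in CPM on axes that start at 0, with points for libraries, a line for the mean of 3 and a bar for the SD. The siNAT10 points lie below all siNC points for NAT10, TLR2, IRAK1, NFKB2, RELB, NFKBIA, TNFAIP3 and BIRC3, and the groups overlap for TLR4, MYD88 and NFKB1. IRAK1 was not called. The share of all tested genes with separate groups is not given here, so separation alone is not a result about the members.

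TLR2 (ENSG00000137462), on chromosome 4 from 153684070 to 153705259 (GRCh38), encodes the receptor for bacterial lipoproteins, which works as a pair with TLR1 or TLR6. It was measured at 5.58, 5.18 and 5.71 CPM in siNC and at 3.13, 3.34 and 3.31 CPM in siNAT10. Every siNAT10 library lay below every siNC library, and the distance between the groups was larger than the spread inside either. The means were 5.49 ± 0.273 CPM and 3.26 ± 0.112 CPM (SD of 3 libraries each), and the log2 fold change was -0.75 (SE 0.123, edgeR adjusted p = 1.12e-05). These levels rest on 66 to 111 counts per library. Of all tested genes, 3.48% had a lower log2 fold change. A fold change of at least 1.5 was not established for TLR2 when the test was made against that fold (glmTreat adjusted p = 0.652).

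TLR4 (ENSG00000136869), the receptor for lipopolysaccharide, was near the limit of detection, with 21, 13 and 10 counts in siNC and 8, 12 and 10 counts in siNAT10. These are 1.12, 0.607 and 0.519 CPM against 0.380, 0.549 and 0.394 CPM, so the groups overlapped and siNC replicate 1 stood above the other libraries. The log2 fold change was -0.74 (SE 0.359, edgeR adjusted p = 0.0950). It was -0.36 without siNC replicate 1 (adjusted p = 0.529) and -0.94 without siNC replicate 3 (adjusted p = 0.0493), the only alternative of the 11 that could test it against no change in which it was called. An unnamed gene, ENSG00000285082, overlaps it on the same strand and held 78.4% as many counts, so the assignment of reads to TLR4 is uncertain.

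Of 15 other Toll-like receptors and their partners, only 6 had enough counts to be tested, and of these 4 were lower, 0 higher and 2 not called, with a median log2 fold change of -0.20. TLR6, a partner of TLR2 named after its values were seen, fell from 3.11 ± 0.596 to 2.30 ± 0.214 CPM (SD, n = 3 per group; log2 fold change -0.44, edgeR adjusted p = 0.0323), with overlapping groups, and it was not followed under the alternatives. TLR1, the other partner, had at most 8 counts in a library and LY96, the co-receptor of TLR4, at most 2. The other called genes encode proteins that fold or move Toll-like receptors: the chaperones HSP90B1 (log2 fold change -0.27) and CNPY3 (-0.13), and UNC93B1 (-0.32). Without siNAT10 replicate 3 neither CNPY3 nor UNC93B1 was called (adjusted p = 0.215 and 0.0728), and CNPY3 lost its call in 6 of the 12 alternatives that test against no change. Each of the other genes of this list was either not called or below the limit for testing.

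MYD88 (ENSG00000172936), the adaptor that joins the receptors to IRAK kinases, was measured at 14.8, 16.1 and 14.6 CPM in siNC and 14.3, 15.1 and 13.6 CPM in siNAT10. The libraries of both groups were interleaved, and the log2 fold change of -0.09 had a 95% interval from -0.24 to 0.06 (edgeR adjusted p = 0.341). IRAK1 (ENSG00000184216), a kinase that acts after MYD88, gave 191, 195 and 185 CPM in siNC and 184, 184 and 183 CPM in siNAT10. All siNAT10 values were the lower ones, but siNC replicate 3 lay close to them, and the log2 fold change of -0.05 (95% interval -0.12 to 0.02) was not called (edgeR adjusted p = 0.207). A fall of MYD88 or IRAK1 as large as that of TLR2 lay outside these intervals.

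Among the 20 tested genes of 21 other adaptors, IRAK and TRAF proteins and the enzymes that work with them, 7 were higher, 6 lower and 7 not called, and the median log2 fold change was 0.065. IRAK4, the kinase that activates IRAK1, fell most in this list, from 47.1, 44.8 and 44.2 CPM in siNC to 25.1, 25.7 and 28.0 CPM in siNAT10. The groups did not overlap (log2 fold change -0.78, SE 0.0514, edgeR adjusted p = 4.80e-13). TWF1 overlaps IRAK4 on the opposite strand, held 483% as many counts and had a log2 fold change of -0.81. Whether counting used strand is not given in the sources used here. Overlap was taken from whole gene spans and not exons, so how many reads could belong to either gene is not known. IRAK3, an inhibitory member of the family, had a log2 fold change of -0.41 (SE 0.0511). TICAM2, an adaptor of TLR4, had -0.46 (SE 0.0669), and its reads can also come from the read-through gene TMED7-TICAM2. TRAF6, the ubiquitin ligase that follows IRAK1, was at 8.18 ± 0.0510 and 7.77 ± 0.237 CPM (SD, n = 3 per group) and was not called (log2 fold change -0.07, edgeR adjusted p = 0.546). UBE2V1 had the highest level per kilobase in this list and a log2 fold change of -0.12, with reads that can also belong to PEDS1-UBE2V1, and it was not called without siNC replicate 3 (adjusted p = 0.0667) or with libraries scaled by size alone (0.0529).

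A list of other receptors that feed NF-kappaB, with the proteins RIPK1, TRADD and FADD that bind their cytoplasmic tails, was split. Of 13 tested out of 14, 4 were higher, 3 lower (CD40, TNFRSF12A and RIPK1) and 6 not called, with a median log2 fold change of 0.13. IL1R1, the receptor of interleukin-1, was at 4.14, 4.30 and 4.62 CPM in siNC and at 9.45, 9.10 and 9.47 CPM in siNAT10. Every siNAT10 library was above every siNC library, and the log2 fold change of 1.10 (SE 0.102, edgeR adjusted p = 5.53e-10) passed both limits in the upward direction, which 0.951% of the tested genes did. TNFRSF1A, the main receptor of TNF, rose from 32.3 ± 1.86 to 44.4 ± 0.892 CPM (log2 fold change 0.46, edgeR adjusted p = 1.08e-08). CD40, a receptor of the slower branch, fell from 62.9 ± 0.661 to 41.9 ± 0.850 CPM (log2 fold change -0.59, edgeR adjusted p = 3.28e-12). TNFRSF12A, with the highest level per kilobase of the list when all 6 libraries were averaged, had a log2 fold change of -0.17.

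Of 12 genes of the IKK kinases, the linear ubiquitin ligase and proteins that act with them, such as MAP3K14, TANK and the F-box proteins BTRC and FBXW11, 5 were higher, 2 lower and 5 not called, with a median log2 fold change of 0.016. IKBKB, the catalytic subunit of the faster branch, rose from 22.5 ± 0.602 to 28.5 ± 1.12 CPM (SD, n = 3 per group; log2 fold change 0.34, edgeR adjusted p = 7.58e-06). CHUK, the catalytic subunit used by the slower branch, was at 44.5 ± 2.00 and 44.1 ± 0.199 CPM and was not called (adjusted p = 0.892). IKBKG, the regulatory subunit, had a log2 fold change of 0.14 (adjusted p = 0.0178) with overlapping groups. It has a near-identical pseudogene, so its reads are uncertain, and its call was lost without siNAT10 replicate 1 (adjusted p = 0.180), siNC replicate 1 (0.125) or siNC replicate 2 (0.0541) and in DESeq2 (0.0596). RBCK1 and SHARPIN, both of the linear ubiquitin ligase, had log2 fold changes of 0.25 and 0.22. The genes called lower, named after their values were seen and not followed under the alternatives, were the kinase IKBKE, with the largest change of the list (log2 fold change -0.50, edgeR adjusted p = 0.00191), and TANK (-0.23).

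Among the subunits of NF-kappaB itself, NFKB2 and RELB were called lower, and NFKB1, RELA and REL were not called. NFKB1 (ENSG00000109320), which encodes p105 and its product p50, was at 35.6, 38.3 and 39.0 CPM in siNC and at 38.8, 43.3 and 40.5 CPM in siNAT10. The groups overlapped, and the log2 fold change of 0.12 (SE 0.0508) was not called (edgeR adjusted p = 0.0611). RELA, the subunit that pairs with p50 and activates transcription, was at 77.7, 85.7 and 82.6 CPM in siNC and at 86.5, 81.5 and 88.3 CPM in siNAT10, a log2 fold change of 0.06 (95% interval -0.03 to 0.14, adjusted p = 0.271). REL, a subunit best known from lymphocytes, was at 23.5 ± 0.886 and 21.7 ± 1.53 CPM (SD, n = 3 per group; log2 fold change -0.11, adjusted p = 0.140), and an unnamed gene on the same strand overlaps it.

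NFKB2 (ENSG00000077150), on chromosome 10 from 102394110 to 102402424, encodes p100 and its product p52. It was measured at 121, 132 and 129.5 CPM in siNC and at 91.1, 92.8 and 90.3 CPM in siNAT10. The groups stood apart, with the siNAT10 libraries close together, and the log2 fold change was -0.48 (SE 0.0380, edgeR adjusted p = 2.35e-11). RELB (ENSG00000104856), on chromosome 19 from 45001461 to 45037790, encodes the partner of p52. Its level was 12.5, 11.8 and 14.5 CPM in siNC and 5.37, 6.45 and 6.63 CPM in siNAT10. No library of either group reached the other, and siNAT10 held 47.6% of the siNC level (log2 fold change -1.06, SE 0.0988, edgeR adjusted p = 5.95e-10). The log2 fold change was -0.98 without siNC replicate 3 and also -0.98 without siNAT10 replicate 1, inside the limit of -1. Both subunits of the slower branch were thus lower, while the levels of NFKB1, RELA and REL differed by less than the test could call. Other genes that act in the slower branch went different ways. CD40 was lower, while LTBR, MAP3K14 and CHUK were not called (log2 fold changes 0.088, 0.037 and -0.0094). TRAF2 and TRAF3 were called higher (0.18 and 0.34). LTBR, MAP3K14, TRAF2 and TRAF3 were named after their values were seen and not followed under the alternatives. The difference between the branches was not itself tested.

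**Figure D2:**
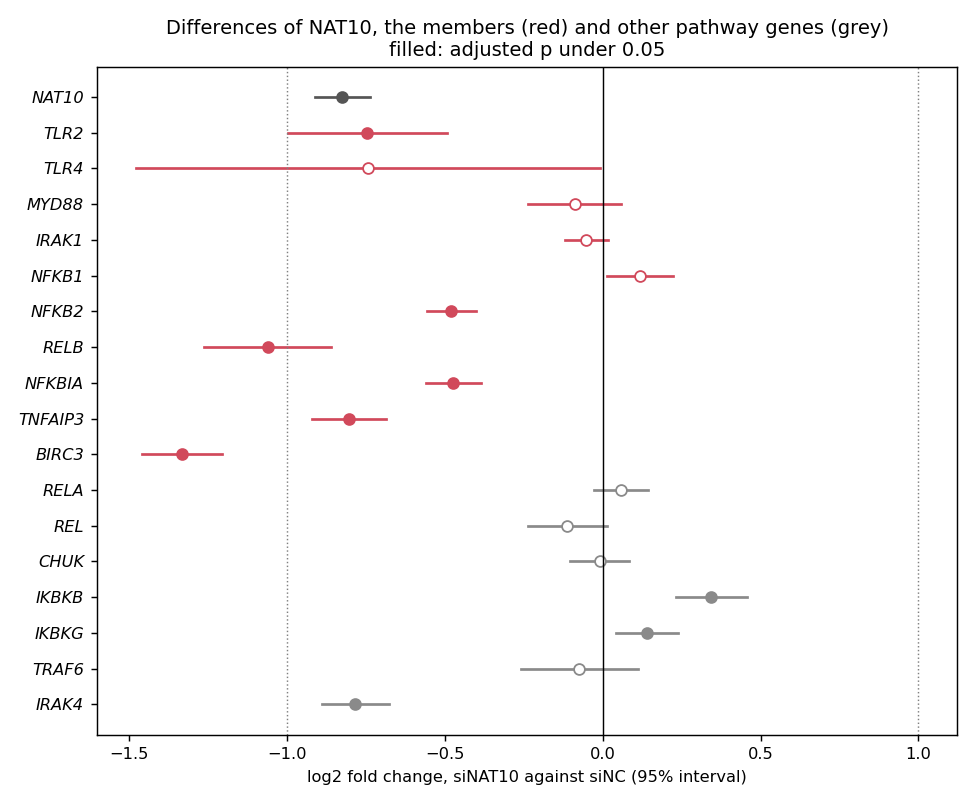
Log2 fold change of siNAT10 against siNC with its 95% interval for NAT10 (dark grey), the 10 members (red) and other pathway genes (light grey), where filled points have an adjusted p under 0.05 and dotted lines mark -1 and 1. BIRC3 and RELB lie left of -1, and the intervals of MYD88, IRAK1, RELA, REL, CHUK and TRAF6 include 0.

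NFKBIA (ENSG00000100906), on chromosome 14 from 35401079 to 35404701, encodes IkappaB-alpha, which holds NF-kappaB in the cytoplasm and is a rapid target of it. It was measured at 73.5, 73.1 and 76.0 CPM in siNC and at 56.6, 51.2 and 52.5 CPM in siNAT10. The groups did not overlap (log2 fold change -0.47, SE 0.0428, edgeR adjusted p = 3.42e-10). TNFAIP3 (ENSG00000118503), on chromosome 6 from 137867214 to 137883314, encodes A20, an enzyme that edits ubiquitin chains and ends the signal. It was at 33.8, 36.7 and 39.3 CPM in siNC and at 21.0, 20.3 and 21.5 CPM in siNAT10. The siNC libraries were more scattered than the siNAT10 libraries, yet all of them lay higher (log2 fold change -0.80, SE 0.0572, edgeR adjusted p = 2.80e-12). The antisense gene WAKMAR2 held 5.65% as many counts as TNFAIP3 and had a log2 fold change of -0.71.

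BIRC3 (ENSG00000023445), on chromosome 11 from 102317484 to 102337705, encodes cIAP2, a ubiquitin ligase that protects cells from death by TNF and keeps the slower branch in check. It had the smallest p of the 10 members. Its level was 32.4, 33.4 and 34.3 CPM in siNC and 12.3, 14.4 and 13.0 CPM in siNAT10. The groups were far apart against a spread of 0.963 and 1.07 CPM (SD, n = 3 per group), and siNAT10 held 39.7% of the siNC level. The log2 fold change was -1.33 (SE 0.0618, 95% interval -1.46 to -1.21, edgeR adjusted p = 3.10e-16), and 0.418% of the tested genes had a lower value. BIRC2, its neighbour on chromosome 11, which encodes the related cIAP1, fell from 42.7 ± 1.53 to 27.4 ± 2.36 CPM (log2 fold change -0.64, edgeR adjusted p = 1.36e-10). Tested against a fold change of 1.5, the members called lower were RELB, TNFAIP3 and BIRC3 (glmTreat adjusted p = 0.000371, 0.00431 and 4.93e-11).

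Of 14 tested among 15 genes listed as other brakes of the pathway, 4 were higher, 4 lower and 6 not called, with a median log2 fold change of 0.018. The list held BIRC2 and XIAP, which are not only brakes, and both were called lower (log2 fold changes -0.64 and -0.17). CYLD, which removes ubiquitin chains, had a log2 fold change of -0.35 (SE 0.0396), while OTUD7B, a relative of TNFAIP3, had 0.17 and TNIP2, an adaptor of A20, had 0.16. Of 9 other Rel and IkappaB proteins and nuclear partners, 3 were lower, 1 higher and 5 not called. NFKBIE, which encodes IkappaB-epsilon, fell from 14.5 ± 1.44 to 10.8 ± 0.184 CPM (log2 fold change -0.43, edgeR adjusted p = 6.51e-05), and NKRF, a repressor of NF-kappaB promoters, had a log2 fold change of -0.40. NFKBIZ, an IkappaB protein of the nucleus, had 0.11, and its call was lost without siNC replicate 2 (adjusted p = 0.105).

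Known target genes of NF-kappaB that mediate inflammation were low or absent to a large extent. Of 25 such genes, 13 had enough counts to be tested, and of these 6 were lower, 1 higher and 6 not called, with a median log2 fold change of -0.23. CXCL8, a chemokine for neutrophils, was at 66.6, 67.3 and 65.3 CPM in siNC and at 36.5, 37.2 and 42.4 CPM in siNAT10 (log2 fold change -0.77, SE 0.0490, edgeR adjusted p = 2.22e-13). IL6 was at 4.99, 5.28 and 5.87 CPM in siNC and at 2.75, 3.20 and 2.60 CPM in siNAT10 (log2 fold change -0.92, SE 0.133, edgeR adjusted p = 1.53e-06). For both genes all siNAT10 libraries lay below all siNC libraries. STEAP1B overlaps IL6 on the opposite strand, held 307% as many counts and had a log2 fold change of -0.52, so the value of IL6 may depend on whether strand was used. ICAM1, an adhesion molecule and the target with the highest level per kilobase in this list, fell from 91.9 ± 4.75 to 58.1 ± 1.75 CPM (log2 fold change -0.66, edgeR adjusted p = 2.69e-13). CSF2, a growth factor of myeloid cells, had only 34, 59 and 57 counts in siNC and 19, 13 and 24 in siNAT10, and its log2 fold change of -1.61 had the wide SE of 0.235. LCN2, which encodes the tubular injury marker NGAL, went the other way, from 6.74, 8.13 and 7.32 CPM in siNC to 16.0, 14.7 and 16.3 CPM in siNAT10 (log2 fold change 1.08, SE 0.0853, edgeR adjusted p = 2.39e-11). CCL2, TNF and IL1B had at most 2, 1 and 5 counts in any library, so a difference in them was not detectable at this depth.

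Of 22 target genes with roles in survival, adhesion and other functions, 21 were tested, and 8 were lower, 4 higher and 9 not called, with a median log2 fold change of -0.055. PLAU, which encodes the protease urokinase, fell from 84.9 ± 0.893 to 48.8 ± 2.80 CPM (SD, n = 3 per group; log2 fold change -0.80, edgeR adjusted p = 6.43e-15). MMP9, a matrix protease with 11 to 45 counts per library, had a log2 fold change of -1.66 (SE 0.242). JUNB, a subunit of AP-1, had -0.47 (SE 0.0470). MMP9 and JUNB, like NKRF, also overlap genes on the opposite strand that held more counts than they did, SLC12A5-AS1, HOOK2 and UBE2A, respectively. The log2 fold changes of SLC12A5-AS1, HOOK2 and UBE2A were smaller falls, at -0.66, -0.26 and -0.089. SDC4, a heparan sulfate proteoglycan, rose from 103 ± 1.49 to 153 ± 6.10 CPM (log2 fold change 0.58, edgeR adjusted p = 2.05e-13). Over all 8 lists, 108 of 133 other pathway genes were tested, of which 36 were called lower, 26 higher and 46 not at all, with a median log2 fold change of -0.029. With libraries scaled by size alone the balance turned, with 31 called lower and 34 higher. It also turned over all tested genes, from 4440 lower and 4331 higher to 3786 lower and 5050 higher.

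**Figure D3:**
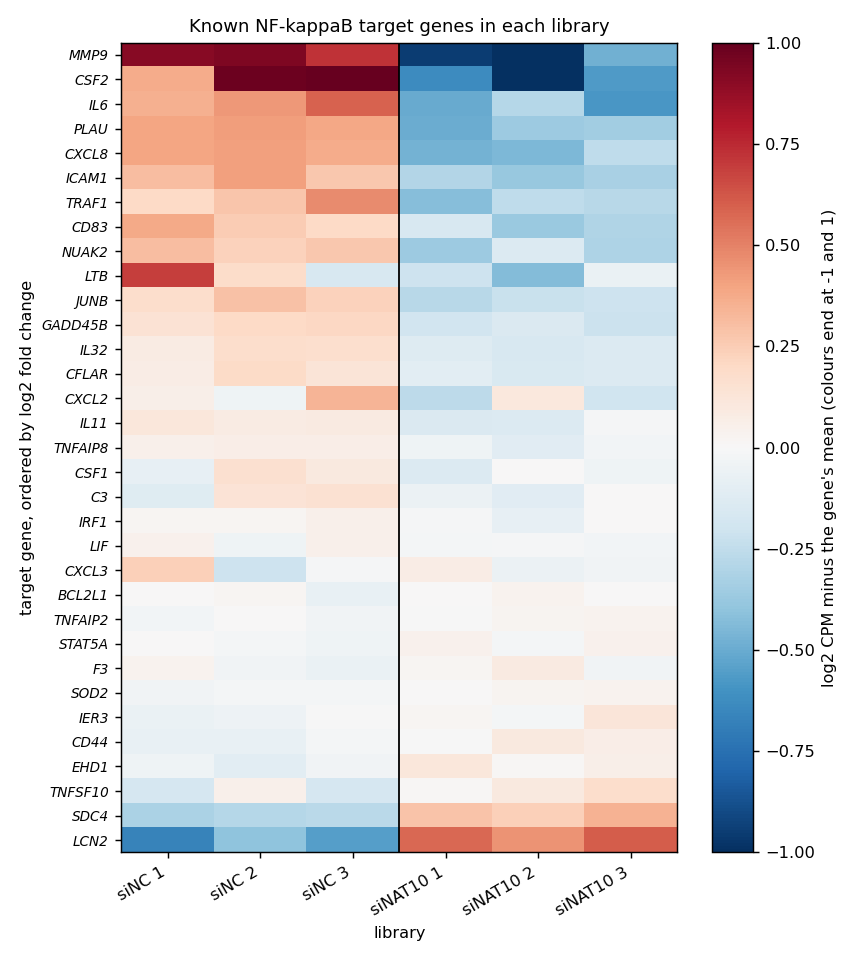
Known NF-kappaB target genes whose mean reached 1 CPM (33 genes, ordered by log2 fold change) in each of the 6 libraries, as log2 CPM minus the gene's own mean, with colours that end at -1 and 1. MMP9, CSF2, IL6, PLAU, CXCL8 and ICAM1 at the top are lower in all 3 siNAT10 libraries, and SDC4 and LCN2 at the bottom are higher in all 3.

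Several members have matches to the binding motif of NF-kappaB in front of their start sites, and the sequences are shown because NFKB2, NFKBIA, TNFAIP3 and BIRC3 are known as targets and fell together. RefSeq promoter entries (GRCh38.p14) were at hand for 9 of the 10 members and not for RELB. The 250 bases before each start site were searched on both strands for the standard degenerate NF-kappaB consensus, which was chosen with the results known. Capitals mark the matches, and matches that overlap form 1 run of capitals. NFKB1, which was not called, is shown beside them. The NFKB2 window belongs to 1 of its 3 start sites, another of which also had matches, and the NFKB1 window to 1 of its 2.
NFKB2, chr10:102394431-102394549, plus strand: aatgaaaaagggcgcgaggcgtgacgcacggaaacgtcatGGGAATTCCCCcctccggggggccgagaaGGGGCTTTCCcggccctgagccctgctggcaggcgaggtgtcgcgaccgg
NFKBIA, chr14:35404781-35404870, minus strand: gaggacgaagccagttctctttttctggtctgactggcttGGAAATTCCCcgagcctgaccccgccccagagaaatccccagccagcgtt
TNFAIP3, chr6:137867152-137867253, plus strand: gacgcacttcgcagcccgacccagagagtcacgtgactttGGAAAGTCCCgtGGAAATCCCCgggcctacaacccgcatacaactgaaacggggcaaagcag
BIRC3, chr11:102317245-102317398, plus strand: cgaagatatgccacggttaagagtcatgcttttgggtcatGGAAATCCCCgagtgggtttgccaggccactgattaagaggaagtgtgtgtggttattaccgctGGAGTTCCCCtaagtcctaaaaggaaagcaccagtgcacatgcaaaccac
NFKB1, chr4:102501270-102501358, plus strand: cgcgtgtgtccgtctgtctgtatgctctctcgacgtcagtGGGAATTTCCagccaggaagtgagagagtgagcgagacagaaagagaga

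A match was found for 6 of the 9 members: IRAK1, NFKB1, NFKB2, NFKBIA, TNFAIP3 and BIRC3. None was found for TLR2, TLR4 and MYD88. Of the members called lower, 4 of 5 had a match, and of those not called 2 of 4. Over all 35116 promoter windows of this length 9.96% held a match, and over 11762 tested genes with an entry 15.3% did. The share was 16.6% among tested genes called lower, 15.3% among those called higher and 14.7% among those not called. In the target genes of both lists it was 5 of 13 among those called lower, 2 of 5 among those called higher and 6 of 11 among those not called. A match describes these letters and does not show binding.

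The ends of the mRNAs were also described, since 3 heptamers had been singled out in earlier results of these data because genes that carry them were lower as a group: GACTATC and ACTATCA, which share bases, and CATATTC. A stretch of this length is what the seed of a small RNA such as an siRNA can pair with, and the siRNA sequences are not given in the sources used here. In the longest 3′ UTR annotated in GENCODE 29, 17.3% of 13076 tested protein-coding genes other than NAT10 carried at least 1 of them, and 40.4% of the carriers were called lower against 23.3% of the rest. This gap over all genes repeats the reason for which the heptamers were picked and is no separate evidence. Among the other pathway genes the shares lay the other way, at 27.3% of 22 carriers and 35.3% of 85 genes without a match, and among the members 2 of 4 carriers and 4 of 6 others were called lower, differences that were not tested. Carriers over all tested genes had longer 3′ UTRs, with a median of 3242 against 1071 bases, and genes were not matched for this length. Among the members, RELB, TNFAIP3 and MYD88 each carried CATATTC at 1 place and TLR4 at 2, and the 6 others, including TLR2, NFKB2, NFKBIA and BIRC3, carried none of the 3. IRAK4, CXCL8, IL6, ICAM1 and PLAU carried none, while CSF2 and IRAK3 did, as did IL1R1, which rose. The part of these matches in the falls of RELB and TNFAIP3 was not tested.

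Levels can be compared between genes only per length of the gene's exons. In siNC the order by CPM per kilobase was IRAK1 (44.6 ± 1.22), NFKB2 (22.8 ± 1.07), NFKBIA (21.9 ± 0.461), TNFAIP3 (5.68 ± 0.425), BIRC3 (4.46 ± 0.129), RELB (4.31 ± 0.467), MYD88 (3.62 ± 0.190), NFKB1 (2.40 ± 0.113), TLR2 (0.951 ± 0.0474) and TLR4 (0.0563 ± 0.0242), as mean and SD of 3 libraries. NFKB2 and NFKBIA overlapped in this order, as did BIRC3 and RELB, while the other neighbours stood apart in every library. In siNAT10 MYD88 (3.41 ± 0.177) moved to the 4th place, level with TNFAIP3 (3.25 ± 0.0928), and NFKB1 (2.61 ± 0.144) stood above RELB (2.05 ± 0.228) and BIRC3 (1.77 ± 0.143), which again overlapped. IRAK1, NFKB2 and NFKBIA kept the first places and TLR2 and TLR4 the last.

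**Figure D4:**
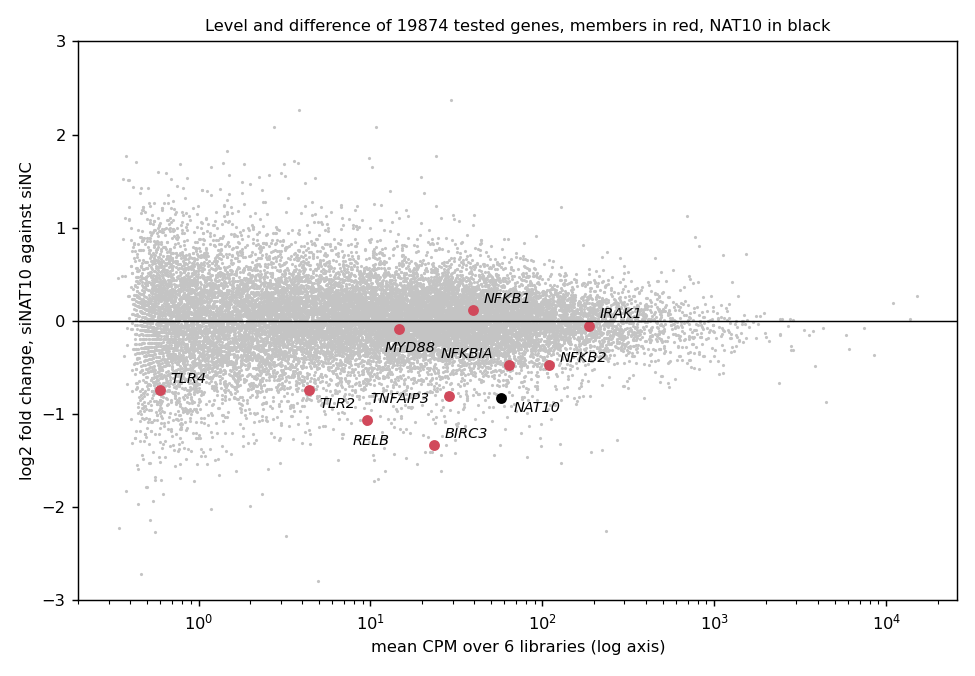
Mean level over 6 libraries in CPM (log axis) and log2 fold change of siNAT10 against siNC for all 19874 tested genes (grey), the members (red) and NAT10 (black). The called members run from TLR2, at a few CPM, to NFKB2, at about 109 CPM, so low counts are not common to them, while TLR4 lies at the lower edge of the measured range.

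The genes most like TLR2 and BIRC3 across the 6 libraries were looked up by the root mean square difference of log2 CPM after centring each gene on its mean, among 14573 named genes whose mean reached 1 CPM. For TLR2 these were SLC35G2 (difference 0.0285), MGLL (0.0370) and SNHG14 (0.0371), with log2 fold changes of -0.74, -0.71 and -0.77. BIRC3 was closest to PCYOX1 (0.0406), IGFBP7 (0.0522) and ZDHHC20 (0.0559), with log2 fold changes of -1.33, -1.28 and -1.41. With 6 libraries in 2 groups, such likeness mostly says that the genes fell by a like amount. Genes on the opposite strand that held more counts overlap MGLL (SEC61A1, 864% as many), SNHG14 (UBE3A, 129%) and IGFBP7 (POLR2B, 765%), so these values too may depend on whether strand was used. SEC61A1, UBE3A and POLR2B did not fall, with log2 fold changes of 0.20, 0.36 and 0.017. MGLL, PCYOX1, IGFBP7 and ZDHHC20 each carried at least 1 of the 3 heptamers, while SLC35G2, TLR2 and BIRC3 carried none.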

How the data were processed

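The authors prepared stranded mRNA libraries with a kit whose random molecular identifiers serve to remove duplicates, and deposited raw counts per gene, 1 column per library. The submitters' processing notes name Trimmomatic 0.36, STAR 2.5.3a, featureCounts of Subread 1.5.1 and GRCh38. The annotation release, the use of strand in counting, and whether reads were merged by identifier before the deposited counts were made are not given in the sources used here, and unmerged copies or antisense reads would change counts.

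The fit used edgeR 4.0.16 under R 4.3.3. filterByExpr (minimum count 10, minimum total 15) kept 19874 genes. Libraries were scaled by TMM and compared with glmQLFit and glmQLFTest, with Benjamini-Hochberg adjustment over all tested genes, and SEs were taken from the F statistic. Programs were tested on simulated data. The spread exceeded counting error: chi-square per gene was 1.74 to 2.55 for library pairs of the same group and 18.6 to 23.0 for pairs of different groups.

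Members, gene lists and the naming rule were chosen with earlier results of these data known. Named were NAT10, the members, 12 pathway genes chosen by role, and in each list genes past both limits (up to 4), the 3 with the smallest p and the one with the highest level per kilobase, besides the genes most like TLR2 and BIRC3. Alternatives were RLE or library size scaling, no filter, a minimum count of 50, a replicate block, DESeq2 1.42.0, the glmTreat test of folds beyond 1.5 and leaving out each library. Sequences were searched with Python 3.11.15 and figures drawn with matplotlib 3.10.9.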

Additional observations from a re-analysis of the deposited data

How the results depend on the processing

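Under each of the 13 alternatives except glmTreat, the 6 members called lower were called lower again, and TLR2 ranged from -0.79 to -0.71, NFKB2 from -0.52 to -0.44, RELB from -1.13 to -0.98, NFKBIA from -0.51 to -0.44, TNFAIP3 from -0.86 to -0.75 and BIRC3 from -1.39 to -1.29 in log2 fold change. NAT10 ranged from -0.85 to -0.79. Tested with glmTreat against a fold change of 1.5, the calls were 163 genes higher, 288 lower and 252 past both limits, 3 members lower, and 2 other pathway genes higher and 5 lower, since this test asks for a larger change. Members called higher numbered 1 (NFKB1) with library size scaling and with the replicate block, and 0 to 1 when a library was left out; the cause was not tested. Members called lower numbered 6 to 7 when a library was left out, the 7th being TLR4. Genes past both limits numbered 711 without the filter and 202 with the stricter filter, which tested 43353 and 14775 genes. CHUK, not called in any of them, had a log2 fold change of 0.028 with library size scaling, 0.0020 without the filter and 0.024 without siNC replicate 3, against -0.040 without siNC replicate 2 and -0.0094 here. TLR4 could not be tested with the stricter filter. Library size scaling called 5050 genes higher and 3786 lower and DESeq2 3253 and 3439, so the share called among all genes depends on the method.

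Same-numbered libraries did not deviate together (correlations of 0.00771, 0.0636 and -0.205 over 12304 genes), and each siNC replicate correlated best with another number. The replicate block gave 4208 genes higher and 4318 lower, against 4331 and 4440 without it, and changed the call of NFKB1 and of no other gene followed under the alternatives. TLR4, CSF2, MMP9 and the cytokine genes below the limit for testing are limited by their few counts.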
